A study of Homo sapiens with 6 samples.

Results

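Markers of neuroendocrine lineage plasticity were examined in C4-2B-ENZR cells after RUVBL1 knockdown. The 9 genes, ENO2, SYP, CHGA, NCAM1, INSM1, SOX2, POU3F2, ONECUT2 and PEG10, were a fixed list of symbols, matched by Ensembl identifier to the 57820 genes of the count files. All 9 were found. RNA sequencing of total RNA gave 6 libraries, 3 from cells transfected with a negative-control siRNA and 3 from cells transfected with an siRNA against RUVBL1, an AAA+ ATPase of chromatin-remodelling and chaperone complexes. C4-2B-ENZR cells are human prostate cancer cells that resist enzalutamide, a blocker of the androgen receptor, and both groups share that background. All libraries come from this 1 line. The sources used here give neither the siRNA sequences, nor the time after transfection, nor whether the medium held enzalutamide, and no label states that replicates are separate cultures. The p-values therefore measure no more than the spread of these libraries, which may be technical.

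Prostate adenocarcinoma cells are luminal epithelial cells that depend on androgen signalling. Under long androgen receptor blockade some tumours lose luminal identity and take on features of hormone-secreting nerve-like cells, a change called neuroendocrine lineage plasticity. Pathologists recognise it by proteins of secretory vesicles and of nerve cells, such as chromogranin A (CHGA), synaptophysin (SYP), the adhesion molecule NCAM1 (CD56) and neuron-specific enolase (ENO2). Transcription factors such as INSM1, SOX2, POU3F2 (BRN2) and ONECUT2, and the retrotransposon-derived gene PEG10, have been tied to the change. Many neuronal genes are held off in epithelial cells by the repressor REST.

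Library totals ran from 18985542 to 36054489 estimated counts. RUVBL1 had 4698 ± 54.1 normalized counts in control and 2684 ± 57.9 with RUVBL1 siRNA (SD, n = 3 each), a log2 fold change of -0.81 (edgeR adjusted p = 3.74e-10). The luminal identity of the line was checked with 19 markers, of which 18 had at least 1 CPM in every library (counts per 1000000 counts of effective library size). Of 6 basal markers, 5 were under 1 CPM in every library, with KRT5 and KRT14 at 0, and DCN, LUM and CD3E of the stromal, endothelial and immune list were at 0. Another 5 of the 13 genes of that list, ACTA2, CD68, COL1A1, PDGFRB and VWF, had at least 1 CPM in every library. In the 2 replicate 1 libraries, 542 of 14127 genes with at least 20 counts in each of the other 4 libraries were listed at 0. The 4 markers with a test below were not among those 542, and the other 5 markers have too few counts for this check.

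The markers fell into 2 sets by level. ENO2, SYP and ONECUT2 were expressed, defined as at least 1 CPM in every library, and PEG10 was low, between 0.873 and 2.43 CPM. CHGA, NCAM1, INSM1, SOX2 and POU3F2 were near-absent: edgeR's filter on low counts removed all 5, and no library held more than 4 counts of any of them. Of the 4 markers left, PEG10 rose 2.00-fold after RUVBL1 siRNA and ENO2 fell to 81.1% of control. In bulk RNA, fewer cells of a type and less RNA per cell cannot be told apart. SYP and ONECUT2 had higher values in all 3 RUVBL1 siRNA libraries but did not pass the test. So 1 of 4 tested markers rose, where 19.1% of the 16006 tested genes rose, and 1 of 4 fell, where 23.1% of tested genes fell. The groups did not overlap for any of the 4, where 52.6% of tested genes do not overlap. The median log2 fold change of the 4 was 0.23, against 0.01 for all tested genes.

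**Figure D1:**
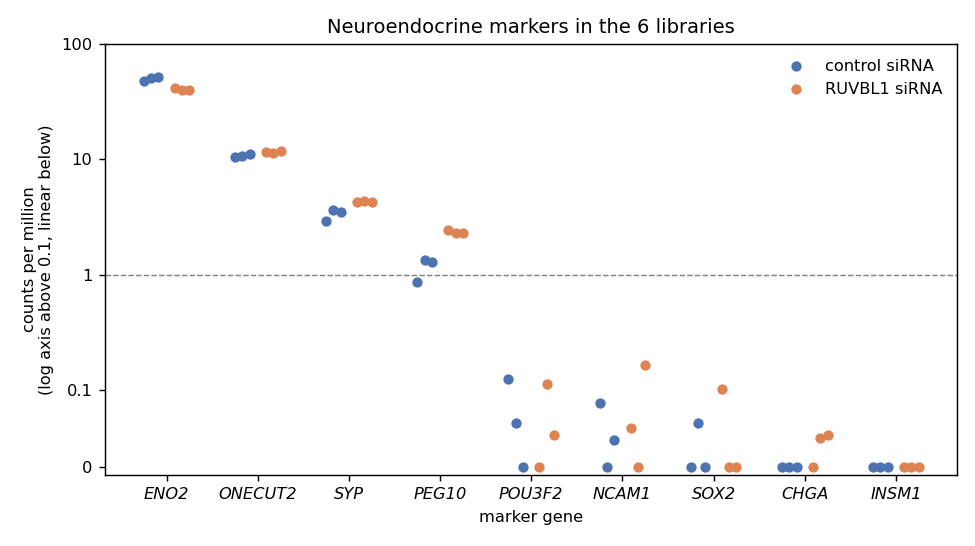
CPM of the 9 markers (vertical axis, logarithmic above 0.1 and linear below, so that 0 can be shown). Each point is 1 library, and the dashed line marks 1 CPM. The 4 markers on the left lie above 0.8 in every library and the 5 on the right below 0.2.

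Promoter windows are shown for 3 markers that stand for the 3 outcomes: ENO2, which fell, SYP, which was higher without passing the test, and CHGA, which was near-absent. RefSeq sequences of build GRCh38.p14 were matched for 6 of the 9 markers, from 250 bases before to 50 after the transcription start, and there was no entry for NCAM1, INSM1 and PEG10. Capitals mark GC boxes (GGGCGG, or its reverse complement, the letters bound by SP-family factors) and, in CHGA, a cyclic AMP response element (TGACGTCA, a palindrome). The ENO2 window is chr12:6914330-6914629 on the plus strand, the SYP window chrX:49200144-49200443 on the minus strand and the CHGA window chr14:92922900-92923199 on the plus strand.
ENO2: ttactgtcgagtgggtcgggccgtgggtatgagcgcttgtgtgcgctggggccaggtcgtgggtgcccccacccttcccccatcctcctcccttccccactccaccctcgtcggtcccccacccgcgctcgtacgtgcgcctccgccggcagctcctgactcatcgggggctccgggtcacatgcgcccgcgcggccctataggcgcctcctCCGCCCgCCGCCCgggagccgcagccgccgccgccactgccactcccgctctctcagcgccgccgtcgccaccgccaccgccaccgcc
SYP: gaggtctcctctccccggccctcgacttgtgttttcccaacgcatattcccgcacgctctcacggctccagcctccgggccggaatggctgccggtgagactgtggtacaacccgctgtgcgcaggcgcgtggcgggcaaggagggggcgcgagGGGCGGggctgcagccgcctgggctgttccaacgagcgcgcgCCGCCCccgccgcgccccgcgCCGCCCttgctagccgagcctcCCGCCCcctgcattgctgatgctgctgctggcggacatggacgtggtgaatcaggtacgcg
CHGA: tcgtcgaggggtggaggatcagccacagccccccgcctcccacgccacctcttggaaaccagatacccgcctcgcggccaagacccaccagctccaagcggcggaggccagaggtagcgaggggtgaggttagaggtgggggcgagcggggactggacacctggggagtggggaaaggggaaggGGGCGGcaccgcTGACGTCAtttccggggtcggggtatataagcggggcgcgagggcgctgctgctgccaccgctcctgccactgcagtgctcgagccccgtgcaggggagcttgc

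GC boxes matched 4 times in the SYP window, 2 times each in those of ENO2, POU3F2 and ONECUT2, and 1 time each in those of CHGA and SOX2. This hexamer is common, and 44.9% of 34943 RefSeq promoter windows hold it on either strand. The SYP matches begin 96, 54, 33 and 11 bases before the start, and the ENO2 matches 38 and 31 bases before it. The cyclic AMP response element was found in CHGA alone among the 6, and in 1.84% of all windows. It begins 54 bases before the start, and the GC box of CHGA begins 66 bases before it. The core of RE1, the element bound by REST, was searched on both strands with its 2 middle bases left free. All windows held it at a share of 0.0515%, and none of the 6 did, which says only that this pattern is not in these windows. All 6 windows lay above the median in CpG, with 20 to 38 CpG dinucleotides against a median of 14 over all windows. ENO2 and SYP had more than 90.1% and 85.9% of windows. CHGA, POU3F2 and ONECUT2 each had more than 66.2%, and SOX2 more than 59.0%. The matched expressed and near-absent markers thus both had windows above the median in GC content, at 63.3% to 75.0% against 58.7%.

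ENO2 (ENSG00000111674.4), the neuronal isoform of the glycolytic enzyme enolase, was by far the best counted marker. Its normalized counts, which are counts scaled to a common library size, were 1264, 1325 and 1352 in control and 1086, 1056 and 1057 with RUVBL1 siRNA. Every RUVBL1 siRNA library lay below every control library. This was a log2 fold change of -0.30 (SE 0.0369, edgeR adjusted p = 3.12e-05), with a mean of 1314 ± 44.9 in control and 1066 ± 16.7 after RUVBL1 siRNA (SD, n = 3 each). The exact two-sided permutation test of log2 CPM gave p = 0.1, and no smaller p is possible with the 20 ways to split 6 libraries into 3 and 3. When libraries were scaled by their totals with no factor for composition (total-count scaling), the log2 fold change was -0.20 (adjusted p = 0.00071), a smaller fall that kept its call.

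PEG10 (ENSG00000242265.1) is an imprinted gene derived from a retrotransposon, which encodes Gag- and Pol-like proteins. It had 21, 47 and 37 counts in control and 48, 61 and 56 with RUVBL1 siRNA. After scaling these were 23.0, 35.7 and 33.8 normalized counts in control and 64.1, 60.6 and 60.8 after RUVBL1 siRNA. Control replicate 1 was the lowest library, and the lowest RUVBL1 siRNA value lay above the highest control value. This was a log2 fold change of 1.00 (SE 0.223, edgeR adjusted p = 0.00312), from a mean of 30.8 ± 6.84 to 61.9 ± 1.95 (SD, n = 3 each), with an exact permutation p of 0.1. Counting error on the summed 105 and 165 counts gives an SE of 0.180 on the log2 scale, so much of the fitted SE is of the size that counting alone gives. The size was smaller with replicate 1 left out: the log2 fold change was 0.80 in replicates 2 and 3 alone (adjusted p = 0.00568) and 0.82 without control replicate 1 (adjusted p = 0.0111). PEG10 shares 219 bases of exon with SGCE on the opposite strand in GENCODE 29, and SGCE, the sarcoglycan gene that starts beside it, had 0 to 2 counts per library.

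SYP (ENSG00000102003.6), an integral membrane protein of synaptic and secretory vesicles, had 77.8, 95.7 and 92.3 normalized counts in control and 112, 114 and 112 with RUVBL1 siRNA. All 3 RUVBL1 siRNA values were above all 3 control values, and control replicate 1 was again the lowest. The means were 88.6 ± 9.49 and 113 ± 1.30 (SD, n = 3 each). The log2 fold change of 0.35 (SE 0.136) had an edgeR p of 0.0256 and an adjusted p of 0.0588, and the exact permutation p was 0.1. With the replicate number as a block the adjusted p was 0.0418, and under total-count scaling it was 0.0168 at a log2 fold change of 0.45. Without control replicate 1 the log2 fold change was 0.26 (adjusted p = 0.182). The antisense gene SYP-AS1, which shares 68 bases of exon with SYP, had 0 counts in every library.

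ONECUT2 (ENSG00000119547.5), a transcription factor with a cut domain and a homeodomain, had 275, 281 and 292 normalized counts in control and 306, 302 and 313 with RUVBL1 siRNA. The RUVBL1 siRNA values again lay above the control values, by a margin as small as the spread within a group. The log2 fold change was 0.12 (SE 0.0751, edgeR p = 0.142, adjusted p = 0.241), with means of 283 ± 8.82 and 307 ± 5.51 (SD, n = 3 each) and an exact permutation p of 0.1. It passed only under total-count scaling, at a log2 fold change of 0.22 (adjusted p = 0.0322). The value thus depended on how the libraries were scaled.

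**Figure D2:**
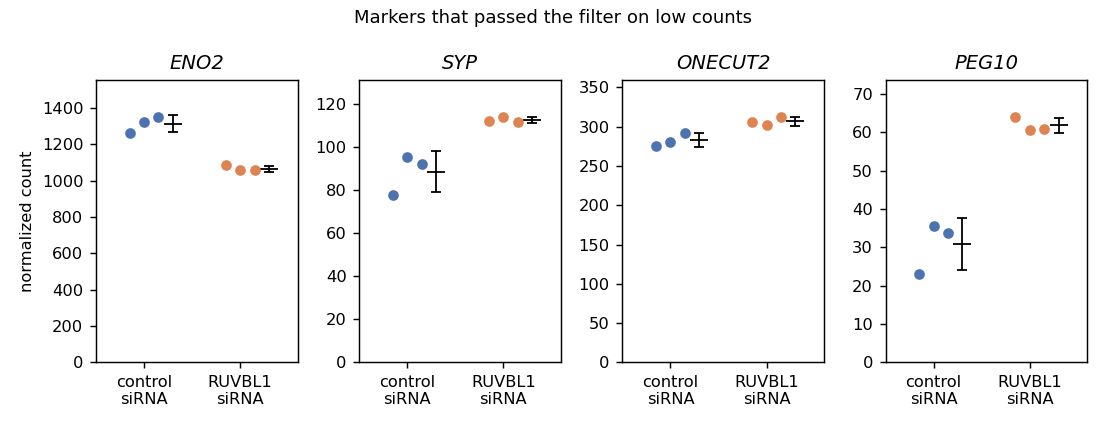
Normalized counts of ENO2, SYP, ONECUT2 and PEG10 in each library (points, replicates 1 to 3 from left to right), with the mean and SD of the 3 libraries beside them. Each vertical axis starts at 0. ENO2 lies lower and the other 3 markers lie higher after RUVBL1 siRNA, with no overlap between groups. Relative to the mean, the spread is widest for SYP and PEG10 in control.

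A ratio of 2 genes within a library does not depend on how libraries are scaled, so the other 3 markers were also set against ENO2. The ratio of SYP to ENO2 counts was 0.0615, 0.0722 and 0.0682 in control and 0.103, 0.108 and 0.106 with RUVBL1 siRNA, a ratio of means of 1.57. For ONECUT2 the ratio to ENO2 was 0.218, 0.212 and 0.216 in control and 0.282, 0.286 and 0.296 after RUVBL1 siRNA, 1.34 times higher. For PEG10 it was 0.0182, 0.0269 and 0.0250 in control and 0.0590, 0.0574 and 0.0576 after RUVBL1 siRNA, 2.48 times higher. ENO2 itself fell to 81.1% of control, which is part of each ratio: ONECUT2 alone stood at 1.09 times control and was not called. Since ENO2 was lower and the others higher in every RUVBL1 siRNA library, the ratios had to separate the groups, and no test is given for them. These ratios are the same at any scaling. They share the ENO2 counts and are not independent.

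**Figure D3:**
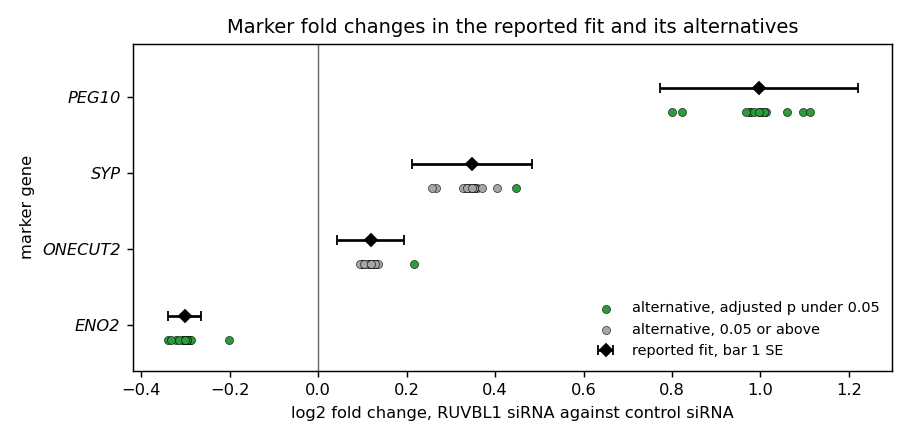
Log2 fold changes of the 4 tested markers (horizontal axis). Black diamonds are the reported fit with a bar of 1 SE, and circles are the alternatives, green where the adjusted p was under 0.05 and grey where it was not. PEG10 and ENO2 are green throughout, while SYP and ONECUT2 are mostly grey, and no alternative crosses 0.

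Per length, ENO2 stood far above the others. Levels between genes were compared as CPM divided by the kilobases of exon (the union of exons in GENCODE 29). On this scale ENO2 had 11.6 ± 0.398 in control and 9.45 ± 0.148 after RUVBL1 siRNA (SD, n = 3 each), above 73.3% of tested genes. ONECUT2 and SYP came next in control, with ranges of 0.643 to 0.684 and 0.566 to 0.696 that overlapped. After RUVBL1 siRNA, SYP at 0.814 to 0.832 lay above ONECUT2 at 0.706 to 0.732. With the longest transcript of each gene in place of the exon union, SYP lay above ONECUT2 in both groups, at 1.35 against 0.666 in control and 1.71 against 0.723 with RUVBL1 siRNA, so the overlap in control depends on the length chosen. PEG10 was lowest of the 4, with 0.131 to 0.202 in control and 0.344 to 0.364 after RUVBL1 siRNA, above 7.62% of tested genes. SYP and ONECUT2 were above 18.8% and 17.9% of tested genes.

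The near-absent markers included both a clinical vesicle marker and most of the transcription factors. CHGA, the soluble cargo protein of neuroendocrine granules, had 0 counts in all 3 control libraries and 0, 1 and 1 with RUVBL1 siRNA. NCAM1, a cell adhesion molecule of the immunoglobulin family, had 2, 0 and 1 counts in control and 1, 0 and 4 after RUVBL1 siRNA. Neither gene had counts that set the groups apart, and single counts decide each value. The antisense genes NCAM1-AS1 and AP000802.1, which share exon bases with NCAM1, had 0 counts throughout.

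INSM1, a zinc-finger factor of neuroendocrine differentiation, had 0 counts in all 6 libraries, which allows up to 0.0190 CPM over the 6 (3 counts of the summed libraries, counting error only). SOX2, a pluripotency and neural progenitor factor, had 0, 2 and 0 counts in control and 2, 0 and 0 after RUVBL1 siRNA. POU3F2, a neural POU-domain factor, had 3, 2 and 0 counts in control and 0, 3 and 1 after RUVBL1 siRNA. No fold change is given for these 5 genes, since a change within so few counts was not detectable at this depth. None of the 5 reached 1 CPM in any library of either group, so this limit concerns changes below that level. Over the 6 libraries the sums were 2 counts for CHGA, 8 for NCAM1, 4 for SOX2 and 9 for POU3F2. The exact Poisson 95% upper limits were 0.0457, 0.0997, 0.0648 and 0.108 CPM, each below the lowest PEG10 value of 0.873. In a fit with no filter on low counts, the edgeR adjusted p was 0.42 for CHGA, 0.742 for NCAM1, 0.953 for SOX2 and 0.974 for POU3F2.

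Relatives of the markers were compared in the same fit. ENO1, the ubiquitous enolase, fell from 26932 ± 174 to 22021 ± 198 normalized counts, by 0.29 in log2 units (SD over 3 libraries a group; edgeR adjusted p = 1.19e-07), beside a value of -0.30 for ENO2. ENO3, the muscle enolase, had a log2 fold change of 0.10 (adjusted p = 0.148), and 0.20 under total-count scaling (adjusted p = 0.00825). SYPL1, the synaptophysin-like protein found outside neurons, fell by 0.39 (adjusted p = 7.39e-09) and the related vesicle protein gene SYNGR2 by 0.38 (adjusted p = 1.72e-08), while SYP was higher.

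NCAM2, the homologue of NCAM1, was well counted and fell from 3749 ± 52.5 to 3204 ± 129 normalized counts (SD over 3 libraries a group; log2 fold change -0.23, edgeR adjusted p = 7.61e-05). RTL8A, another gene derived from a retrotransposon Gag sequence, rose by 0.50 (adjusted p = 4.22e-07), an uncertain value because RTL8A, RTL8B and RTL8C are near-identical copies that may share reads. INSM2, POU3F3 and CHGB had 0 counts in every library. POU3F1 had 0 to 2, ONECUT1 0 to 1 and ONECUT3 0 to 1. In all, 15 of 30 relatives and neighbours were tested, of which 5 rose (33.3%, against 19.1% of all tested genes) and 4 fell (26.7%, against 23.1%), with 8 and 4 under total-count scaling.

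Other genes of the lineage were taken from 7 lists. Under total-count scaling, 31.1% of all tested genes rose and 14.4% fell, and the counts of each list at that scaling are to be read against these shares. Calls were more common among well-counted genes: 6912 of 13030 with at least 50 counts in 3 libraries, against 6755 of 16006. That filter kept 15 of 16 tested REST complex genes, 20 of 23 Notch genes and 17 of 18 luminal markers. The share over all tested genes is thus a low yardstick for these lists. Of 21 further transcription factors on the neuroendocrine list, 11 were tested. Of these, 4 rose (36.4%, against 19.1% of all tested genes) and 1 fell (9.09%, against 23.1%), with 6 and 1 under total-count scaling. The median log2 fold change was 0.18 against 0.01 for all tested genes. This list is not limited to factors of neuroendocrine cells. POU2F3, 1 of the 4 that rose, is a tuft cell factor, and E2F1, the 1 that fell, is a factor of S-phase entry. With voom of limma, 3 rose and 1 fell. The counts were also 3 and 1 in each fit that left out 1 library, except without RUVBL1 siRNA replicate 1, where they were 4 and 1. NEUROD1, NEUROG3, MYCN and ST18 had 0 counts in every library. PAX6, an eye and endocrine factor, rose from 28.0 ± 3.73 to 60.7 ± 16.9 normalized counts, by 1.11 in log2 units (SD over 3 libraries a group; edgeR adjusted p = 0.00352). POU2F3, the tuft cell factor, rose by 1.03 from 20.6 ± 3.65 to 42.2 ± 4.30 (adjusted p = 0.00698). Both are low in counts, with 251 and 183 summed over the 6 libraries. HES6, a neurogenic relative of the Hes repressors, rose by 0.24 (adjusted p = 0.0095), and E2F1, a factor of S-phase entry, fell by 0.38 (adjusted p = 2.88e-06).

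Of 30 genes of vesicle and peptide secretion, 16 were tested, 4 rose and 4 fell, with a median log2 fold change of 0.05. These shares, 25% each way, were near the 19.1% and 23.1% of all tested genes. Under total-count scaling 6 rose and 1 fell, and with the replicate block 5 and 4. These counts rested on single libraries: 2 rose and 4 fell without control replicate 1, 4 rose and 2 fell without control replicate 2, and 2 rose and 2 fell without RUVBL1 siRNA replicate 2. The granule and vesicle genes PCSK1, PCSK2 and SNAP25 had 0 counts in every library, as CHGB did. CPLX1, which clamps vesicle fusion, rose by 0.54 from 120 ± 4.24 to 176 ± 10.1 normalized counts (SD over 3 libraries a group; edgeR adjusted p = 0.00157). VAMP2, a vesicle SNARE, rose by 0.25 (adjusted p = 0.000102). CPE, which trims prohormones, fell by 0.29 (adjusted p = 7.79e-06). DNAJC5, the cysteine string protein of vesicles, fell by 0.16 (adjusted p = 0.00131) but was not called under total-count scaling (log2 fold change -0.06, adjusted p = 0.164).

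REST itself rose from 1204 ± 44.0 to 1367 ± 45.7 normalized counts (SD over 3 libraries a group; log2 fold change 0.18, edgeR adjusted p = 0.00239). Of 16 tested genes of the REST complex and its splicing antagonists, 6 rose (37.5%, against 19.1% of all tested genes) and 6 fell (37.5%, against 23.1%), and 8 rose and 2 fell under total-count scaling. RCOR2, a corepressor named here after its values were seen, had 18.63, 22.02 and 14.62 normalized counts in control and 8.01, 7.95 and 7.61 with RUVBL1 siRNA. It fell most of the 6 (log2 fold change -1.22, edgeR adjusted p = 0.0268). It had 83 counts in all and lost its call in 5 of the 6 fits that left out 1 library, with an adjusted p of 0.0678 to 0.156. CTDSP2, a phosphatase that acts with REST, rose by 0.43 (adjusted p = 0.000195) and the deacetylase gene HDAC1 by 0.15 (adjusted p = 0.000343). HDAC2 fell by 0.19 (adjusted p = 0.000227), and USP7, a deubiquitinase, by 0.16 (adjusted p = 0.000949), the latter not called under total-count scaling (adjusted p = 0.153). SRRM4, the neural splicing factor that inactivates REST, had 4 counts over the 6 libraries, and SRRM3 had 34.

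Polycomb and DNA methylation factors are tied to lineage plasticity. Of 21 tested, 6 rose and 5 fell (12 and 2 under total-count scaling), and these shares, 28.6% and 23.8%, were near the 19.1% and 23.1% of all tested genes. EZH2, the Polycomb methyltransferase, fell by 0.15 from 1569 ± 48.9 to 1418 ± 49.5 normalized counts (SD over 3 libraries a group; edgeR adjusted p = 0.00643), and was not called under total-count scaling (log2 fold change -0.05, adjusted p = 0.38). Its relative EZH1 rose by 0.40 (adjusted p = 7.53e-06). The mitotic kinase gene AURKA rose by 0.42 (adjusted p = 3.52e-07) and the maintenance methyltransferase gene DNMT1 fell by 0.40 (adjusted p = 9.93e-07).

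Notch signalling restrains neuroendocrine differentiation in several epithelia. Of 23 tested genes of the pathway, 13 fell (56.5%, against 23.1% of all tested genes) and 6 rose (26.1%, against 19.1%). Under total-count scaling 11 fell and 7 rose, and with the DESeq2 Wald test 11 fell and 6 rose. The number that fell ran from 11 to 13 when each library was left out in turn. The median log2 fold change was -0.24. The ligand gene JAG1 fell by 0.83 from 651 ± 39.5 to 366 ± 16.9 normalized counts (SD over 3 libraries a group; edgeR adjusted p = 5.7e-07) and JAG2 by 0.32 (adjusted p = 1.1e-06). ADAM10, the protease that makes the first activating cut, fell by 0.50 (adjusted p = 2.52e-09), and PSEN2, a gamma-secretase subunit, by 0.48 (adjusted p = 3.75e-06). DLL3, an inhibitory Notch ligand carried by neuroendocrine tumours and named here after its values were seen, had 232, 254 and 237 normalized counts in control and 315, 342 and 313 after RUVBL1 siRNA. The log2 rise was 0.42 (adjusted p = 0.00117), with no overlap between the groups.

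Of 7 tested genes of neuronal structure, 0 rose and 1 fell, which was the intermediate filament gene NES (log2 fold change -0.54, edgeR adjusted p = 0.0075), where 19.1% of all tested genes rose and 23.1% fell. In replicates 2 and 3 alone, 2 fell. STMN2 and INA had 0 counts in every library. Among markers of the luminal lineage, 11 of 18 tested genes fell (61.1%, against 23.1% of all tested genes) and 3 rose (16.7%, against 19.1%), with 10 and 5 under total-count scaling. STEAP2, KRT8 and FOLH1 fell by 0.44, 0.49 and 0.35, and the pioneer factor gene FOXA1 rose by 0.26. The summed luminal list had 6918 to 7015 CPM in control and 5848 to 5981 after RUVBL1 siRNA, so it stayed far above the 62.5 to 67.2 and 58.3 to 59.6 CPM of the 9 markers summed. The part of luminal marker levels in the values of the 9 markers was not tested. On the stromal, endothelial and immune list, 2 of 5 tested genes fell (against 23.1% of all tested genes) and 0 rose (against 19.1%): ACTA2 and CD68 fell by 1.33 and 0.96 on the log2 scale. That list summed to 33.9 to 38.5 CPM in control and 23.6 to 25.2 with RUVBL1 siRNA, with 5 of its 13 genes at 0 throughout. Of 1 tested basal marker, DST rose by 0.17 on the log2 scale, and that list summed to 26.6 to 28.8 and 31.0 to 32.0 CPM.

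**Figure D4:**
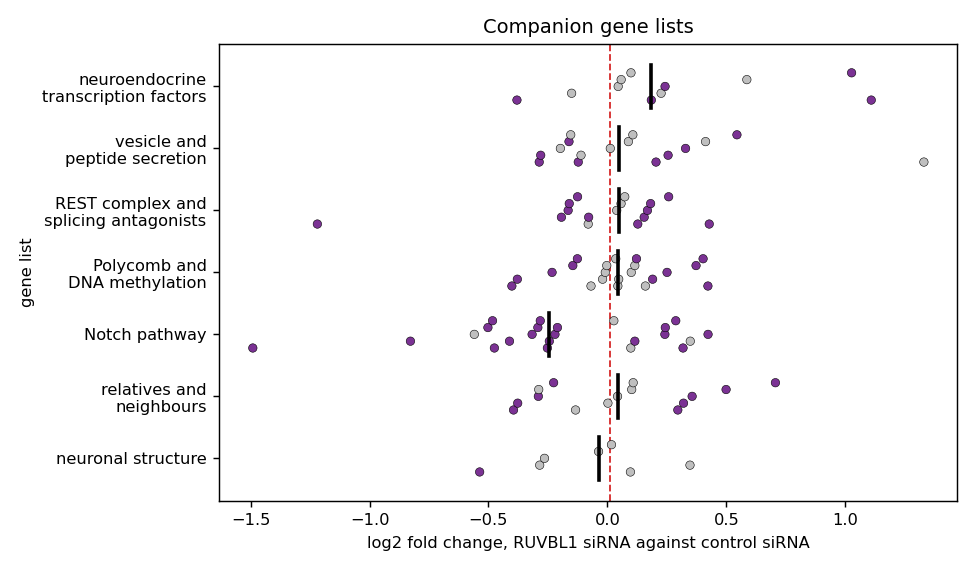
Log2 fold changes (horizontal axis) of the tested genes on the 7 companion lists. Each point is 1 gene, purple where the edgeR adjusted p was under 0.05 and grey where it was not, the black bar is the median of the list, and the red dashed line is the median of all tested genes at 0.01. The Notch list has its median at -0.24, and the other medians lie between -0.04 and 0.18.

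Likeness over the 6 libraries was described by Pearson's r of log2 CPM, among 11269 named genes with a mean of at least 100 normalized counts. The points share library and scaling, and 2 groups of 3 libraries make high values common. ENO2 was most like WDR76 (r = 0.998) and WDR36 (r = 0.998), and 1528 genes had an r above 0.95 with it. SYP was most like RAB29 (r = 0.992) and ANXA2R-OT1 (r = 0.992), with 239 genes above 0.95. ONECUT2 was most like PLEKHB1 (r = 0.994) and SUB1 (r = 0.992), with 199 genes above 0.95.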

How the data were processed

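The deposited files hold estimated counts per gene, 1 file per library, and were not scaled by the authors to library size: 87.8% to 90.5% of the values are whole and the totals differ. Per the submitters' processing notes, the tool was Bowtie 0.12.2 and the builds were mm8 and mm9 of the mouse, although cells and gene identifiers are human. The sources used here do not give the counter, human build, annotation or strand setting. Reads of overlapping genes may therefore not have been told apart.

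Rounding to whole numbers moved totals by at most 0.000222%. Symbols matched 51996 of 57820 genes. UHRF1, NEFL and PECAM1, on the lists, were matched to no gene and are not analysed here. The test was the two-sided quasi-likelihood test of edgeR 4.0.16 (R 4.3.3) after filterByExpr and TMM, with group alone in the model, robust estimation, Benjamini-Hochberg adjustment over 16006 genes and a threshold of 0.05. Values in the text given as an adjusted p are from this fit unless an alternative is named. Normalized counts are scaled to the mean effective library size. The permutation test used log2 CPM with a prior count of 2. Motifs were counted on distinct promoter windows.

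On counts simulated for RUVBL1 siRNA against control (15777 genes tested, 200 changed), edgeR found 30 of the 50 genes with a 1.25-fold change. It found 42 of 50 at 1.5-fold, 49 of 50 at 2-fold and 50 of 50 at 3-fold. Of its 180 calls, 9 were false. The simulation gave every gene the same dispersion, and it held no shift in composition and no deviation shared between replicates. Its rates therefore check the code and do not measure power or error in the real comparison.

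Libraries with the same replicate number had correlated deviations from the group means (0.936, 0.801 and 0.81 across tested genes). Replicates 2 and 3 correlated across numbers nearly as much (0.8 and 0.791), so these values do not show that 2 pairs with 2 and 3 with 3. The labels state no pairing, and the reported fit uses none. A fit blocked on replicate number is an alternative. Others were the DESeq2 1.42.0 Wald test, voom of limma 3.58.1, and relative log expression (RLE) factors from edgeR in place of TMM. The rest were library totals alone, no filter, a stricter filter (50 counts or more in 3 libraries), replicates 2 and 3 alone, and each library left out. A bound of each p by counting noise was added after seeing the data.

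The markers, the lists and the rule for named genes were chosen with earlier results of these data known. The rule names the 9 markers, RUVBL1, 13 relatives (ENO1, ENO3, SYPL1, NCAM2, INSM2, POU3F1, POU3F3, ONECUT1, ONECUT3, SGCE, CHGB, REST and EZH2), the 4 tested genes with the smallest p among those past the threshold on each list, and the 2 genes most like each expressed marker. Genes listed at 0 in every library, SRRM3 and SRRM4 are named outside it, after their values were seen. Some genes of the lists are not reported here by name.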

Additional observations from a re-analysis of the deposited data

How the results depend on the processing

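The number of markers that rose was 1 in the reported fit, 3 under total-count scaling (PEG10, SYP and ONECUT2) and 2 with the replicate block (PEG10 and SYP). It was 1 in the other alternatives, and from 1 to 1 when each library was left out in turn. The number that fell was 1 in all 15 alternatives. SYP also passed with the filter of at least 50 counts in 3 libraries (log2 fold change 0.36, adjusted p = 0.0393), where fewer genes were tested and PEG10 had no value. Scaling by totals moved the median gene by 0.0993 on the log2 scale and the share of calls that were higher from 45.3% to 68.4%. No marker changed direction: ENO2 ranged from -0.34 to -0.20, PEG10 from 0.80 to 1.11, SYP from 0.26 to 0.45 and ONECUT2 from 0.09 to 0.22. ENO2 and PEG10 passed in every alternative that tested them. With the replicate block, 7837 genes were called against 6755, and no other marker call changed. Over the alternatives, adjusted p ran from 0.0168 to 0.211 for SYP and from 0.0322 to 0.588 for ONECUT2. Depth limits the 5 near-absent markers, where 1 to 4 counts set a value, and PEG10, with 270 counts in all.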

Other observations

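A few genes of the same lists lie outside the naming rule and were chosen after their values were seen. CALCA, SOX9, VGF and RTL8C had higher means after RUVBL1 siRNA, while PAM and SYT7 had lower means. None of them stands for its list. Of 16 tested vesicle and peptide secretion genes, 4 rose and 4 fell (25% each, against 19.1% and 23.1% of all tested genes). Those that fell include PAM (log2 fold change -0.28, edgeR adjusted p = 0.0205) and SYT7 (-0.12, adjusted p = 0.0339). Neither was called under total-count scaling (adjusted p = 0.115 and 0.729). CALCA, which encodes the neuroendocrine peptides calcitonin and CGRP, had 15.3, 28.1 and 9.14 normalized counts in control and 22.7, 49.7 and 60.8 with RUVBL1 siRNA. The groups overlapped, and the log2 fold change of 1.33 (SE 0.484) missed the threshold in edgeR (adjusted p = 0.0573). It passed in 7 of the 14 alternatives that tested it, among them the replicate block (adjusted p = 0.00192) and replicates 2 and 3 alone (adjusted p = 0.00159). SOX9, a factor of epithelial progenitors from the same family as the near-absent SOX2, had 167, 120 and 124 normalized counts in control and 230, 233 and 208 after RUVBL1 siRNA. It rose by 0.71 (edgeR adjusted p = 0.000993), with no overlap between the groups and the same call in all 15 alternatives. VGF, a granin-family secretory protein gene, had 149, 156 and 145 normalized counts in control and 182, 201 and 184 after RUVBL1 siRNA. It rose by 0.33 (adjusted p = 0.0228), and lost its call in 5 alternatives, with an adjusted p of 0.0548 without control replicate 1, 0.0807 without control replicate 3, 0.0883 without RUVBL1 siRNA replicate 2, 0.0705 with DESeq2 and 0.096 with no filter on low counts. RTL8C, a near-identical copy of RTL8A, rose by 0.36 (adjusted p = 6.8e-06), and its reads may be shared with that gene.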
